A study of Mus musculus with 74 samples.

Results

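The genes described here encode the subunits of the 5 oxidative phosphorylation complexes of the mouse. All rows of the deposited count table whose symbol follows the naming of those subunits were taken, namely Nduf followed by a, b, c, s or v and a number for complex I, Sdha to Sdhd for complex II, Uqcr for complex III, Cox4 to Cox8 for complex IV and Atp5 for complex V. This gave 83 genes of 24015, of which 35 belonged to complex I (all Nduf genes but Ndufa4, a protein now placed in complex IV and counted there), 4 to complex II, 8 to complex III, 19 to complex IV and 17 to complex V. By role, 20 are core subunits, 53 are accessory subunits and 7 are isoforms known from particular tissues (Cox4i2, Cox6a2, Cox6b2, Cox7a1, Cox7b2, Cox8b and Cox8c). The remaining 3 (Atp5s, Atp5sl and Cox7a2l) carry the name of a complex without being one of its structural subunits. Uqcrc1, called a core protein of complex III below, is counted among the accessory subunits. The rule uses symbols and no measured value, though the gene group was proposed with earlier results of these data known.

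Complexes I and II pass electrons from NADH and succinate to ubiquinone, complex III passes them to cytochrome c, and complex IV reduces oxygen with them. Complexes I, III and IV pump protons across the inner mitochondrial membrane, and complex V uses the returning protons to make ATP. Complex II is also an enzyme of the citric acid cycle. The genes described here are nuclear; a small number of further core subunits are encoded by mitochondrial DNA. Absorptive cells of the intestinal villus are known for dense mitochondria.

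RNA was measured in 31 libraries of mouse gut epithelium in 15 groups, as read counts per gene. Wild-type (WT) forestomach, hindstomach and small intestine of CD1 embryos were taken at E12, E14 and E16, with 2 libraries a group, after trypsin digestion and flow sorting for Epcam; the labels call the E12 and E14 small intestine midgut. WT E18 small intestine, also CD1 with 2 libraries, was taken as villi released with EDTA and then treated with TrypLE. Cdx2, the transcription factor that sets intestinal identity, was the target of 4 deletion groups. In the first, labelled deleted at E10, Cdx2f/f; Shh-Cre embryos of mixed B6;129 background were sorted at E16 without any treatment (3 libraries). The groups labelled deleted at E13 and at E15 were Cdx2f/f; Villin-Cre embryos of the same background whose dams received 5 mg tamoxifen by oral gavage, collected at E16 by sorting and at E18 by EDTA (2 libraries each). The adult groups, on the B6;129 background, were villi of the ileum of Cdx2f/f mice given sunflower oil and of Cdx2f/f; Villin-Cre mice given 1 mg tamoxifen on 5 days and taken 3 days later (2 libraries each). Shh-Cre acts in the endoderm from early stages and Villin-Cre in the intestinal epithelium. In the embryonic deletion groups, strain and genotype cannot be told apart, nor can tamoxifen in those labelled deleted at E13 and E15, since the CD1 controls received none. In the adult groups tamoxifen against oil, Cre and the deletion cannot be told apart. Embryonic libraries were made with a low-input SMARTer kit and adult ones with TruSeq, so adult and embryonic values were never tested against each other. The labels do not say that libraries of a group came from separate animals, so p-values measure only the spread between these samples.

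Library totals ran from 5970227 to 62463167 counts, with E16 forestomach the shallowest at 5970227 and 6335340. In these 2 libraries epithelial markers took 0.174% and 0.167% of counts, against 0.395% to 1.87% in the other 25 embryonic libraries. Blood markers took 1.68% and 2.20% there and mesenchyme and muscle markers 2.78% and 3.32%, although the labels describe an Epcam sort. No mesenchyme or muscle marker was at 0 counts there. Of the 11 blood markers 6 (Hba-a1, Hba-a2, Hbb-b1, Hbb-b2, Hbb-bt and Hbb-bs) were at 0 counts in these and all other groups. Blood shares therefore rest on the remaining markers throughout. Cdx2 itself was low in the libraries labelled deleted at E10, at 17.4, 14.5 and 27.5 CPM (counts scaled to the adjusted library total), against 196 and 218 CPM in WT E16 small intestine. It was not low in the other deletion groups: 213 and 217 CPM in the libraries labelled deleted at E13, 388 and 371 CPM in those labelled deleted at E15 against 200 and 206 CPM in WT, and 472 and 462 CPM in adult knockout against 242 and 248 CPM in adult WT. Cdx2 thus goes against these labels; whether a whole-gene count can show the deleted exons was not tested. All deletion groups are named by their labels throughout. Among WT groups, E12 hindstomach held Cdx2 at 116 and 160 CPM, near E12 small intestine at 153 and 115 CPM. E12 forestomach stood at 2.33 and 2.15 CPM and E14 hindstomach at 12.7 and 6.2 CPM. The part of this in comparisons with E12 hindstomach was not tested.

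Of the 83 genes, 81 had enough counts to test in the embryonic libraries and 77 in the adult ones. Ndufs5 had 0 counts in all 31 libraries and Cox8c at most 4 counts in any. In adult libraries Cox4i2, Cox6a2, Cox7b2 and Cox8b were also too low. A gene is said to have risen or fallen where edgeR's quasi-likelihood test gave an adjusted p below 0.05 over all 17239 embryonic or 12444 adult genes tested. In bulk samples, fewer cells of a type and less RNA per cell cannot be told apart.

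The promoter sequences of members with unlike patterns are shown first, to set the letters near their start sites beside their values. RefSeq promoter windows (GRCm38.p6, 250 bases before to 50 after the start) were matched for 66 of the 83 genes, 5 of them with more than 1 window, giving 71 windows. In capitals are the letters of 4 motifs searched on both strands: GCGCA and GCGC with any 1 base between them for NRF1, CCGGAAG for GABPA, TCAAGGTCA for estrogen-related receptors and AAGATGGCG for YY1. NRF1 and GABPA are regulators known for respiratory subunit genes. The bases directly before the start are given for Cox7a1 (chr7:30184071-30184170, plus strand), a tissue-restricted isoform of complex IV, and Ndufb10 (chr17:24724424-24724523, minus strand), an accessory subunit of complex I, both with steep rises below. Sdhd (chr9:50603850-50603949, minus strand), a membrane anchor of complex II, and Atp5g2 (chr15:102671048-102671147, minus strand), a gene for subunit c of complex V that did not rise with the others, follow. The first pair holds none of these letters in the stretch shown, and the second pair does. Sdhd also rose steeply below, so the letters shown do not part these genes by their rise.
Cox7a1: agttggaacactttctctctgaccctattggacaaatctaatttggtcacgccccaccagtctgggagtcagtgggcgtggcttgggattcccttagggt
Ndufb10: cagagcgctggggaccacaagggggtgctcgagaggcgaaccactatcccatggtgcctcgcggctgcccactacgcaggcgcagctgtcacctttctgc
Sdhd: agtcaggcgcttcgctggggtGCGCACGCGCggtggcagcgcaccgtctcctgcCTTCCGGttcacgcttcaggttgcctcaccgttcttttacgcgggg
Atp5g2: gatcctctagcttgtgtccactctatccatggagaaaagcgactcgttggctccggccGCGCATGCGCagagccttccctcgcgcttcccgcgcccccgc

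A short stretch after the start is also shown for Sdhd (chr9:50603800-50603829, minus strand), whose capitals are the estrogen-related receptor letters on the opposite strand, and for Uqcrc1 (chr9:108936662-108936691, plus strand), a core protein of complex III, whose capitals are the NRF1 letters.
Sdhd: tttccgggttgtagagTGACCTTGAgccct
Uqcrc1: cctcagactccgctctGCGCATGCGCagcg

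The NRF1 letters were in 18 of the 71 windows (25.4%), against 4.6% of all 32851 windows in the table. GABPA letters were in 16 (22.5%, against 8.86%), YY1 letters in 7 (9.86%, against 1.4%) and estrogen-related receptor letters in 2 (2.82%, against 0.423%), those of Sdhd and Atp5g3. A letter match is not a binding site, and no binding data were used here.

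Counted together, the 83 genes took 1.51% to 2.30% of counts in all WT organs at E12 and E14, and 3.33% and 3.30% in E16 small intestine. E16 forestomach stood at 2.09% and 1.97% and E16 hindstomach at 1.76% and 1.82%. E18 small intestine stood at 2.43% and 2.39%. On the adjusted totals that underlie CPM the order of these last groups was the other way, with 3.50% and 3.46% at E18 and 3.07% and 3.01% in E16 small intestine. Among the 9 WT groups of E12 to E16, 57 of the 81 tested genes had their highest mean CPM in E16 small intestine. With E18 small intestine included, 46 were highest there and 18 in E16 small intestine. Among the groups of E12 to E16 the lowest mean was in E14 forestomach for 38 and in E14 hindstomach for 24.

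**Figure D1:**
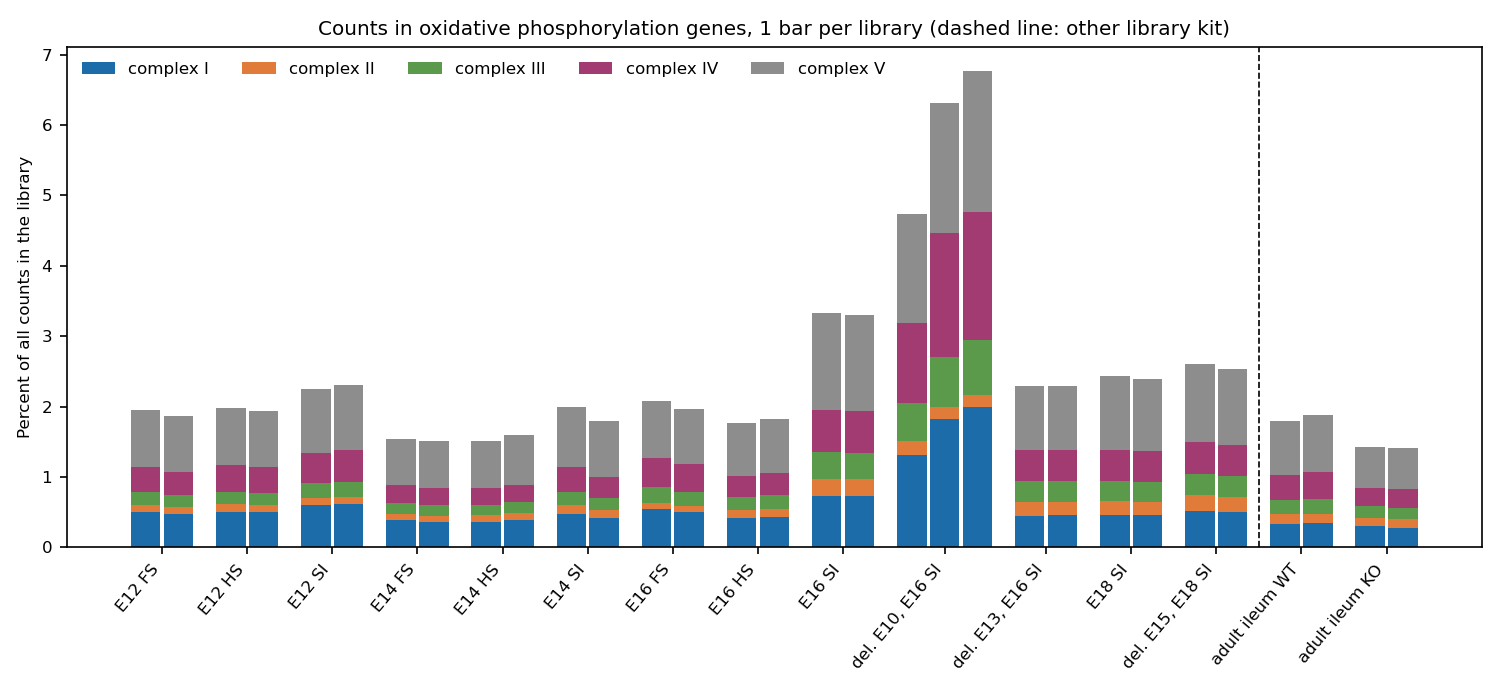
Percent of each library's counts in the 83 genes, stacked by complex, for all 31 RNA libraries. On these plain totals WT E16 small intestine (3.33% and 3.30%) stands above the other WT libraries, while on adjusted totals WT E18 small intestine does (3.50% and 3.46%); the 3 libraries labelled deleted at E10 (4.74%, 6.31% and 6.77%) above all.

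Between E14 and E16 in the small intestine, genes of every complex rose together. Of the 81 tested, 68 rose and 0 fell, with a median log2 fold change of 0.89; over all genes tested 19.5% rose and 21.2% fell and the median was -0.08. All 4 complex II genes and all 8 complex III genes rose (medians 1.23 and 1.21). In complex I 31 of 34 rose (median 0.78), in complex IV 11 of 18 (1.05) and in complex V 14 of 17 (0.82). Of the core subunits 18 of 20 rose (median 1.01) and of the accessory ones 48 of 52 (0.88).

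Of the electron entry genes, Ndufb10, an accessory subunit of complex I, stood at 72.6 and 59.2 CPM at E14 and at 229 and 204 CPM at E16. The E16 libraries lay well above the E14 ones, a log2 fold change of 1.71 with SE 0.21 (edgeR, adjusted p 2.9e-06). Ndufs1 and Ndufv1, core subunits that carry iron-sulfur clusters and the NADH site, rose by 0.97 and 1.04. Sdhb, the iron-sulfur subunit of complex II, went from 231 and 198 CPM to 525 and 554 CPM (1.33, SE 0.11, edgeR adjusted p 2.5e-08). Sdhd, with stretches of its window printed above, went from 296 and 261 CPM to 734 and 766 CPM (1.43). Sdha, which holds the flavin of complex II, rose by 1.13.

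In complex III, Uqcrq, a small subunit next to cytochrome b, went from 137 and 107 CPM to 377 and 379 CPM. Its groups did not overlap and the log2 fold change was 1.63 with SE 0.21 (edgeR, adjusted p 5.18e-06). The Rieske iron-sulfur protein Uqcrfs1 and the core protein Uqcrc1, counted here as accessory, rose by 1.17 and 1.35. In complex IV, the widely expressed Cox4i1, Cox5a, Cox6a1 and Cox7a2 rose by 1.06, 0.85, 1.28 and 1.16. Cox7a1 rose most steeply of the members with an average log2 CPM of at least 2, from 2.16 and 1.58 CPM to 12.8 and 9.23 CPM, a log2 fold change of 2.53 with SE 0.33 (edgeR, adjusted p 5.94e-06). In complex V the catalytic subunits Atp5a1 and Atp5b rose by 1.05 and 0.87.

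Subunit c of complex V, the proton-carrying ring, is made from 3 genes that differ in their import peptides. Atp5g1 went from 321 and 265 CPM to 771 and 747 CPM and rose by 1.37, and Atp5g3 rose by 0.82. Atp5g2 stood at 243 and 196 CPM at E14 and at 200 and 197 CPM at E16, so its groups overlapped (log2 fold change -0.15, edgeR adjusted p 0.51). The other genes that did not pass included Ndufs6 (0.57), Cox7c (0.53), Ndufa6 (0.35), Cox7a2l (0.27), Atp5e (0.27), Ndufa7 (0.26), Atp5sl (0.01) and Cox6b2 (-0.50). Among tested genes with a promoter window, 13 of 16 with NRF1 letters rose (median 0.93) and 42 of 49 without them (0.88). For GABPA letters these were 15 of 16 (1.04) and 40 of 49 (0.86), for YY1 letters 6 of 7 (0.88) and 49 of 58 (0.88), and for estrogen-related receptor letters 2 of 2 (1.12) and 53 of 63 (0.88). The differences were not tested.

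Other mitochondrial genes moved in the same step. All 20 fatty acid oxidation genes listed rose (median 1.58). Of the citric acid cycle genes 13 of 14 rose (median 0.91). Cyc1, the nuclear core subunit of complex III outside the naming rule, and cytochrome c (Cycs) rose by 1.37 and 0.97. Of the assembly factors of the complexes 15 rose and 1 fell of 38 (median 0.39), and of the mitochondrial ribosomal proteins 20 rose and 1 fell of 74 (median 0.26). Of the 17 glycolysis genes 2 rose and 4 fell, and of 75 cytosolic ribosomal proteins 0 rose and 27 fell. Among regulators of mitochondrial biogenesis, the coactivator Ppargc1a rose by 2.77 and the receptor Esrra by 2.24, while Yy1 and Pprc1 fell by 1.13 and 0.98.

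Marker shares moved with this step too. Epithelial markers took 0.536% and 0.522% of counts at E14 and 1.00% and 0.982% at E16 in the small intestine, where 5 of 7 rose and 1 fell. Mesenchyme and muscle markers, of which 10 of 14 rose, took 0.0437% and 0.0502% and then 0.171% and 0.188%, and of the blood markers tested 3 of 5 rose and 1 fell. Immune markers took 0.00952% and 0.00979% and then 0.039% and 0.0381% (5 of 10 rose), and 5 of 6 endothelial and 3 of 7 nerve and glia markers rose. Lars2, a mitochondrial tRNA synthetase gene at which libraries stood apart, went from 3820 and 9150 CPM to 635 and 524 CPM. No mesenchyme or muscle marker was at 0 counts in either group. Their part in the result was not tested. Without the second E14 small intestine library 47 of the 81 were called; the E14 library with the highest total, 62463167 counts, was the first.

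**Figure D2:**
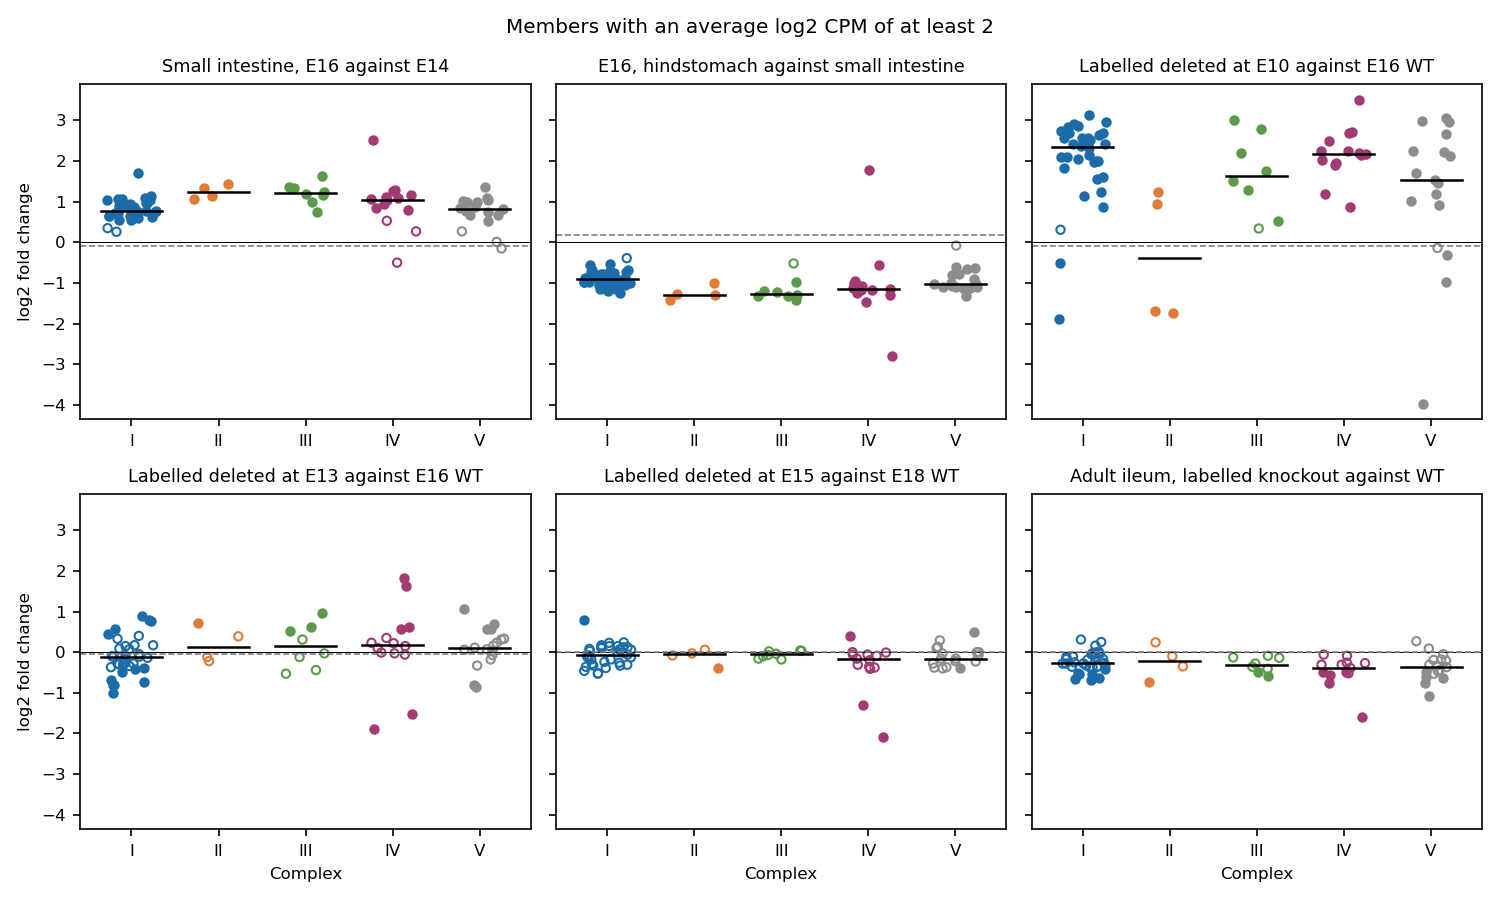
Log2 fold change (vertical axis) of members with an average log2 CPM of at least 2, by complex, in 6 comparisons. Filled points passed the edgeR test, open points did not, black bars are medians per complex and dashed lines the median of all genes tested; small intestine from E14 to E16 and the libraries labelled deleted at E10 lie mostly above 0.

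In the step before, from E12 to E14, members fell in all 3 organs in the fit of all embryonic groups; for small intestine 0 were called when only its own 2 stages were fitted, and 47 with DESeq2. In the forestomach 0 rose and 33 fell (median -0.49; 2 and 52 with only its 2 stages fitted), where 12.4% of all genes rose and 12.9% fell. In the hindstomach 1 rose and 42 fell (median -0.50, against 16.5% and 14.7%), and in the small intestine 1 rose and 30 fell (median -0.43, against 17.7% and 12.2%). In the small intestine 26 of the 52 accessory subunits but 1 of the 20 core subunits fell; in the forestomach these were 24 and 8 and in the hindstomach 31 and 8. The difference between core and accessory subunits was not tested.

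In the forestomach, among called members with an average log2 CPM of at least 2, Atp5k and Cox5a fell most steeply. Atp5k, subunit e of complex V, fell by 0.92 and Cox5a, a complex IV subunit, by 0.90. In the hindstomach Cox7c, a small complex IV subunit, went from 238 and 283 CPM to 107 and 115 CPM, a log2 fold change of -1.24 with SE 0.22 (edgeR, adjusted p 0.000371). In the small intestine Ndufa1, a membrane subunit of complex I, went from 91.5 and 75.9 CPM to 40 and 33.2 CPM (-1.19, SE 0.22). The complex II gene Sdha was the only member called higher there, from 207 and 218 CPM to 302 and 311 CPM (0.53). Cytosolic ribosomal proteins also fell in that step (42 of 75), as did 30 of 74 mitochondrial ones.

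Lars2 and the nuclear RNA Malat1, at which libraries stood apart, moved with this step. Lars2 went from 1050 and 701 CPM to 8990 and 8340 CPM in forestomach and from 1090 and 991 CPM to 7670 and 7660 CPM in hindstomach. Malat1 went from 2260 and 2050 CPM to 447 and 357 CPM in forestomach. The E14 small intestine libraries differed from each other, with Lars2 at 3820 and 9150 CPM and Malat1 at 1010 and 214 CPM. Cdx2 in hindstomach went from 116 and 160 CPM to 12.7 and 6.2 CPM. Of the mesenchyme and muscle markers 8 of 14 rose and 1 fell in small intestine, and of the immune markers 5 of 10 rose. Epithelial markers there went from 0.399% and 0.395% of counts to 0.536% and 0.522%, and their share was also higher at E14 in both stomach organs. Forestomach blood markers went from 0.0308% and 0.0269% to 0.00424% and 0.00388%. The part of these values in the result was not tested.

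The E12 to E14 counts moved with single libraries. In the small intestine 3 members were called without the second E14 library and 17 without the first E12 library. In the forestomach 7 to 20 and in the hindstomach 9 to 19 were called when any 1 of the 4 libraries was left out: 8 and 20 without the first and second E12 forestomach libraries, 10 and 7 without the E14 ones, 15 and 19 without the E12 hindstomach libraries, and 9 and 19 without the E14 ones.

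Members rose in the stomach after E14 as well. In the forestomach 56 rose and 2 fell from E14 to E16 (median 0.70; 26.2% and 25.2% of all genes). In the hindstomach 19 rose and 0 fell (median 0.36; 20.5% and 14.8%). The hindstomach total of 19 was 36 with RLE scaling, 42 with DESeq2 and 47 with only its 2 stages fitted. Forestomach Cox6b2, an isoform known from testis, went from 8.69 and 9.4 CPM to 62.5 and 72.4 CPM, a log2 fold change of 2.90 with SE 0.38 (edgeR, adjusted p 4.22e-06). Ndufa1 rose there by 1.84 and Ndufb10 by 1.63. The members that fell there were Ndufs1, from 115 and 114 CPM to 85.4 and 62.9 CPM (-0.63), and Atp5s (-0.62). With RLE scaling neither was called (-0.33 and -0.32), and with DESeq2 Atp5s was not. In the hindstomach the steepest rises were of Cox6b2 (1.41), Ndufb10 (0.93) and Atp5g1 (0.91).

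The E16 forestomach libraries were those with few epithelial and many blood and muscle counts. Between E14 and E16 there, 6 of 7 epithelial markers fell, and all 14 mesenchyme and muscle, all 10 immune, all 6 endothelial, 4 of 7 nerve and glia and all 5 tested blood markers rose. Their summed shares went from 0.0199% and 0.0184% to 2.78% and 3.32% for mesenchyme and muscle, and from 0.00424% and 0.00388% to 1.68% and 2.20% for blood. Hindstomach mesenchyme and muscle markers went from 0.0166% and 0.0181% to 0.937% and 0.981%, and all 14 rose. In the hindstomach blood markers went from 0.00199% and 0.00204% to 0.137% and 0.192% (4 of 5 tested rose) and immune markers from 0.0011% and 0.00123% to 0.112% and 0.133% (10 of 10). Nerve and glia markers went from 0.00418% and 0.0041% to 0.0819% and 0.0815% (5 of 7), and all 6 endothelial markers rose. Lars2 went from 8990 and 8340 CPM to 1550 and 1790 CPM in forestomach and from 7670 and 7660 CPM to 456 and 534 CPM in hindstomach. The part of these values in the stomach results was not tested. In the hindstomach the count was 5, 8, 11 and 7 without the first or second E14 or the first or second E16 library.

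Whether the E14 to E16 change differed between organs was tested directly. The change was larger in small intestine than in hindstomach for 19 members and smaller for 1 (median difference 0.58, against 6.06% and 10.1% of all genes). Against forestomach it was larger for 15 and smaller for 3 (median difference 0.08, against 15.3% and 16.4%). The median against forestomach was -0.06 with DESeq2's size factors, so it has no settled sign. In complex II, 3 of 4 genes had the larger change in small intestine in both tests. Cox7a1 and Sdha were larger in small intestine by 3.28 and 1.37 against forestomach, and by 3.02 and 1.09 against hindstomach. Cox6b2 was smaller by 3.40 and 1.91 on the log2 scale (differences of -3.40 and -1.91). Between hindstomach and forestomach, 1 member had the larger change in hindstomach and 10 the smaller (median difference -0.47, against 10.2% and 5.86%); this total of 11 was between 1 and 5 when any 1 of the 8 libraries was left out, and 23 with RLE scaling, 32 with DESeq2 and 49 with only the compared groups fitted. The total of 20 for small intestine and hindstomach was 10 or 11 without any 1 of 7 of the 8 libraries, and 19 without the first E14 small intestine library; it was 31 with DESeq2 and 65 with only the compared groups fitted. The total of 18 for small intestine and forestomach was 28 in such a fit.

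**Figure D3:**
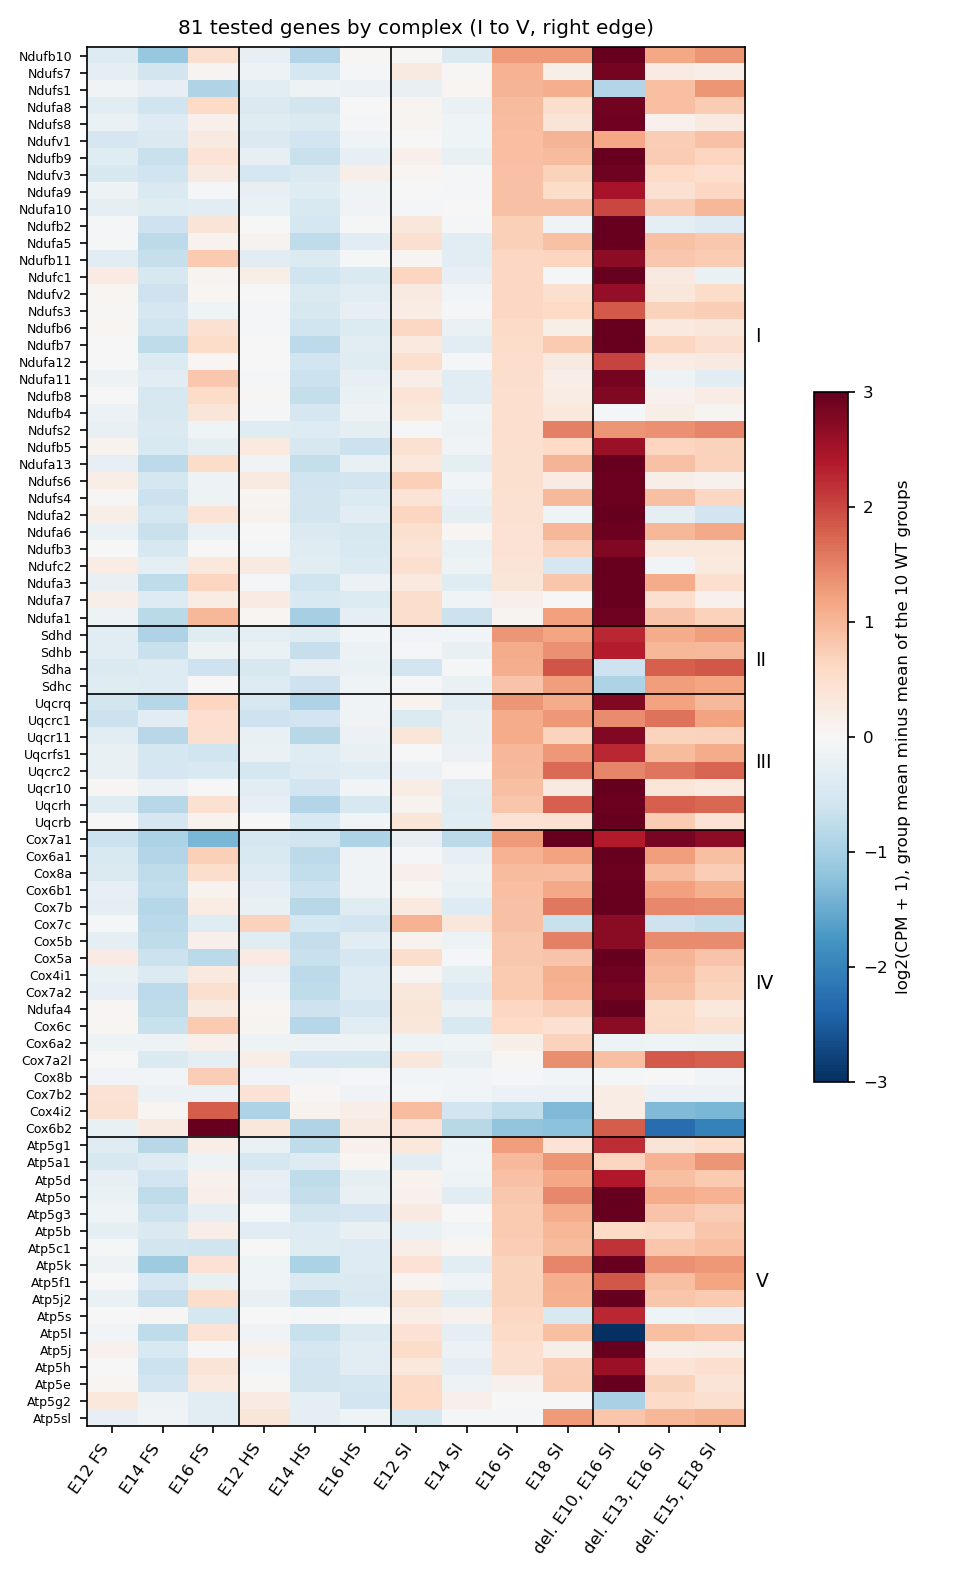
Heat map of the 81 tested members by complex (rows) in the 13 embryonic groups (columns). Colour is the group's mean log2(CPM + 1) minus the mean over the 10 WT groups, saturating at 3 in either direction; the E14 stomach columns are low and the E16 small intestine column is high among WT groups of E12 to E16.

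At E12 and E14, members called between stomach and small intestine were mostly lower in stomach. At E12 forestomach against hindstomach had 1 higher (Cox4i2) and 1 lower (Cox7c; 4.21% and 5.35% of all genes), forestomach against small intestine 0 and 11 (8.42% and 8.02%, median -0.37) and hindstomach against small intestine 1 and 6 (7.89% and 6.89%, median -0.35). At E14 these were 1 and 1 (Cox6b2 and Sdhd; 4.02% and 7.73%), 1 and 22 (6.62% and 11.6%, median -0.41) and 0 and 14 (4.75% and 6.5%, median -0.39). At E12, Cox7c was 1.09 lower on the log2 scale in forestomach than in small intestine (log2 fold change -1.09), and at E14 -1.18. Sdhd at E14 was lower in forestomach than in both other organs (-0.83 against small intestine and -0.55 against hindstomach). In the E12 hindstomach libraries Cdx2 was near the level of E12 small intestine, as given above. Its part in these comparisons was not tested.

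Each of these 6 counts moved with single libraries. With only the compared groups fitted, the totals against small intestine were 2 and 0 at E12 and 38 and 45 at E14 for forestomach and hindstomach, and 9 between the stomach organs at E14; with DESeq2 E12 forestomach against small intestine had 17. At E12 the totals of 2, 11 and 7 ranged over 0 to 1, 1 to 12 and 1 to 6 when 1 library was left out. At E14 the totals of 2, 23 and 14 ranged over 0 to 1, 3 to 25 and 0 to 16. The lowest of the last pair, 3 and 0, came without the first E14 small intestine library; without the first or second forestomach library 7 and 6 were called, and without the first or second hindstomach library 1 and 3. At E12 against small intestine, 2 and 1 were called without the first and second forestomach library and 1 without either hindstomach library; without the first small intestine library 1 and 2 were called. Between the stomach organs 0 were called without any 1 library, except 1 without the first hindstomach library at either stage.

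At E16 more members differed. In hindstomach 73 members were lower than in small intestine and 1 was higher (median -0.99; 21.9% of all genes were higher and 16.7% lower, median 0.18). This comparison shares the E16 small intestine libraries with the E14 to E16 step. All 20 core subunits, 33 of 34 complex I genes and 16 of 17 complex V genes were lower. Uqcrq stood at 136 and 144 CPM in hindstomach and 377 and 379 CPM in small intestine (-1.43). Cox7c stood at 103 and 109 CPM against 300 and 285 CPM (-1.47, SE 0.23, edgeR adjusted p 4.51e-05). Sdha was at 271 and 283 CPM against 689 and 654 CPM (-1.28). The hindstomach libraries were lower in each of these genes, with no overlap.

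The exception was Cox6b2, at 7.68 and 10.7 CPM in hindstomach and 2.87 and 2.46 CPM in small intestine (1.78, SE 0.38, edgeR adjusted p 0.00117). Fatty acid oxidation genes (20 of 20), citric acid cycle genes (13 of 14), mitochondrial ribosomal proteins (66 of 74) and cytosolic ones (54 of 75) were also lower in hindstomach, as was Esrra (-1.88). Mesenchyme and muscle markers took 0.937% and 0.981% of counts in hindstomach and 0.171% and 0.188% in small intestine, with 11 of 14 higher. Blood markers took 0.137% and 0.192% against 0.0219% and 0.0222%, with 5 of 5 tested higher. The 6 of 11 blood markers at 0 in both were at 0 in all groups. Nerve and glia markers took 0.0819% and 0.0815% against 0.00621% and 0.00711%, with 6 of 7 higher, and immune markers 0.112% and 0.133% against 0.039% and 0.0381%, with 3 of 10 higher. Of 7 epithelial markers 1 was higher and 3 were lower. Their part in the result was not tested.

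Forestomach at E16 was lower than small intestine in 44 members and higher in 4 (median -0.55; 23% of all genes higher and 24.8% lower). Here 18 of 20 core subunits but 24 of 52 accessory subunits were lower, with medians of -0.92 and -0.45; the difference between them was not tested. Ndufs1 stood at 85.4 and 62.9 CPM against 262 and 292 CPM (-1.90, SE 0.14, edgeR adjusted p 2.34e-09), and Sdha at 195 and 217 CPM (-1.70). Cox6b2 was higher by 4.66 and Ndufa1, at 117 and 116 CPM against 58.1 and 63.9 CPM, by 0.94. Cox4i2, an isoform known from lung and from low oxygen, was also called higher there (13 and 5.66 CPM against 0.453 and 0.873), and so was Cox8b, known from heart and muscle, on 5 and 5 counts against 1 and 0.

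Against hindstomach, forestomach was higher in 34 members and lower in 4 (median 0.43, against 11.8% and 21.1% of all genes). Of called members with an average log2 CPM of at least 2, Cox6b2 (2.88), Ndufa1 (1.33) and Cox6c (1.15) were the highest. Ndufs1 (-0.70), Atp5s (-0.58) and Sdha (-0.43) were among the lower. With RLE scaling and with DESeq2, Atp5s (-0.38) and Sdha (-0.23) were not called. Of the accessory subunits 28 of 52 were higher and of the core subunits 3 of 20. The total of 38 was 25 without the first forestomach library and 20 without the first hindstomach library. The forestomach marker shares given above stand beside both comparisons.

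From E16 to E18 the small intestine members went in both directions: 21 rose and 13 fell, with a median of 0.11, where 26.2% of all genes rose and 29.5% fell. With only these 2 groups fitted 36 rose and 26 fell. Stage and the way the cells were released cannot be told apart here. Cox7a1 rose by 3.56, from 12.8 and 9.23 CPM to 136 and 124 CPM (SE 0.33, edgeR adjusted p 3.02e-08). Cox7a2l, a factor for joining complexes III and IV into supercomplexes, rose by 1.37, from 94.8 and 97.4 CPM to 247 and 248 CPM, and Atp5sl by 1.36. Cox7c fell from 300 and 285 CPM to 103 and 97.8 CPM (-1.55), Atp5s fell by 1.15 and Ndufc2, a complex I membrane subunit, by 0.90.

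Sdha rose further, by 0.81, to 1180 and 1170 CPM. Ppargc1a and Esrra rose by 2.37 and 1.75, while 60 of 74 mitochondrial ribosomal proteins and 18 of 38 assembly factors fell. All 14 mesenchyme and muscle markers fell, from 0.171% and 0.188% to 0.00283% and 0.00268% of counts, with Col6a3, Lum, Des and Actg2 at 0 counts in both E18 libraries. Blood markers went from 0.0219% and 0.0222% to 0.000109% and 5.69e-05%, with all 5 tested lower, and epithelial markers from 1.00% and 0.982% to 0.63% and 0.616%, with 2 of 7 lower and 1 higher. Of 10 immune markers 5 fell and 2 rose, and 5 of 6 endothelial and 4 of 7 nerve and glia markers fell. Their part in the result was not tested. When any 1 of the 4 libraries was left out 20 or 21 members were called: 21 without the second E18 library and 20 without each other one.

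Some isoforms of complex IV are known from particular tissues. Of these, Cox7a1, of heart and muscle, lay between 0.617 and 4.01 CPM in all WT libraries of E12, E14 and E16 stomach, and so at levels whose neighbours overlap. It reached 9.23 and 12.8 CPM in E16 small intestine and 124 and 136 CPM in E18. In adult ileum, by the other kit, it stood at 52.3 and 67.2 CPM. Its paired isoform Cox7a2 was at 356 and 337 CPM in E16 and 427 and 409 CPM in E18 small intestine. Cox6b2 was highest in E16 forestomach and between 2.38 and 12.2 CPM in the other WT embryonic libraries; it was called lower at E14 than at E12 in hindstomach (-1.52) and small intestine (-1.45). Cox7b2 had at most 34 counts in any library, Cox8b at most 5 and Cox6a2 at most 17.

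**Figure D4:**
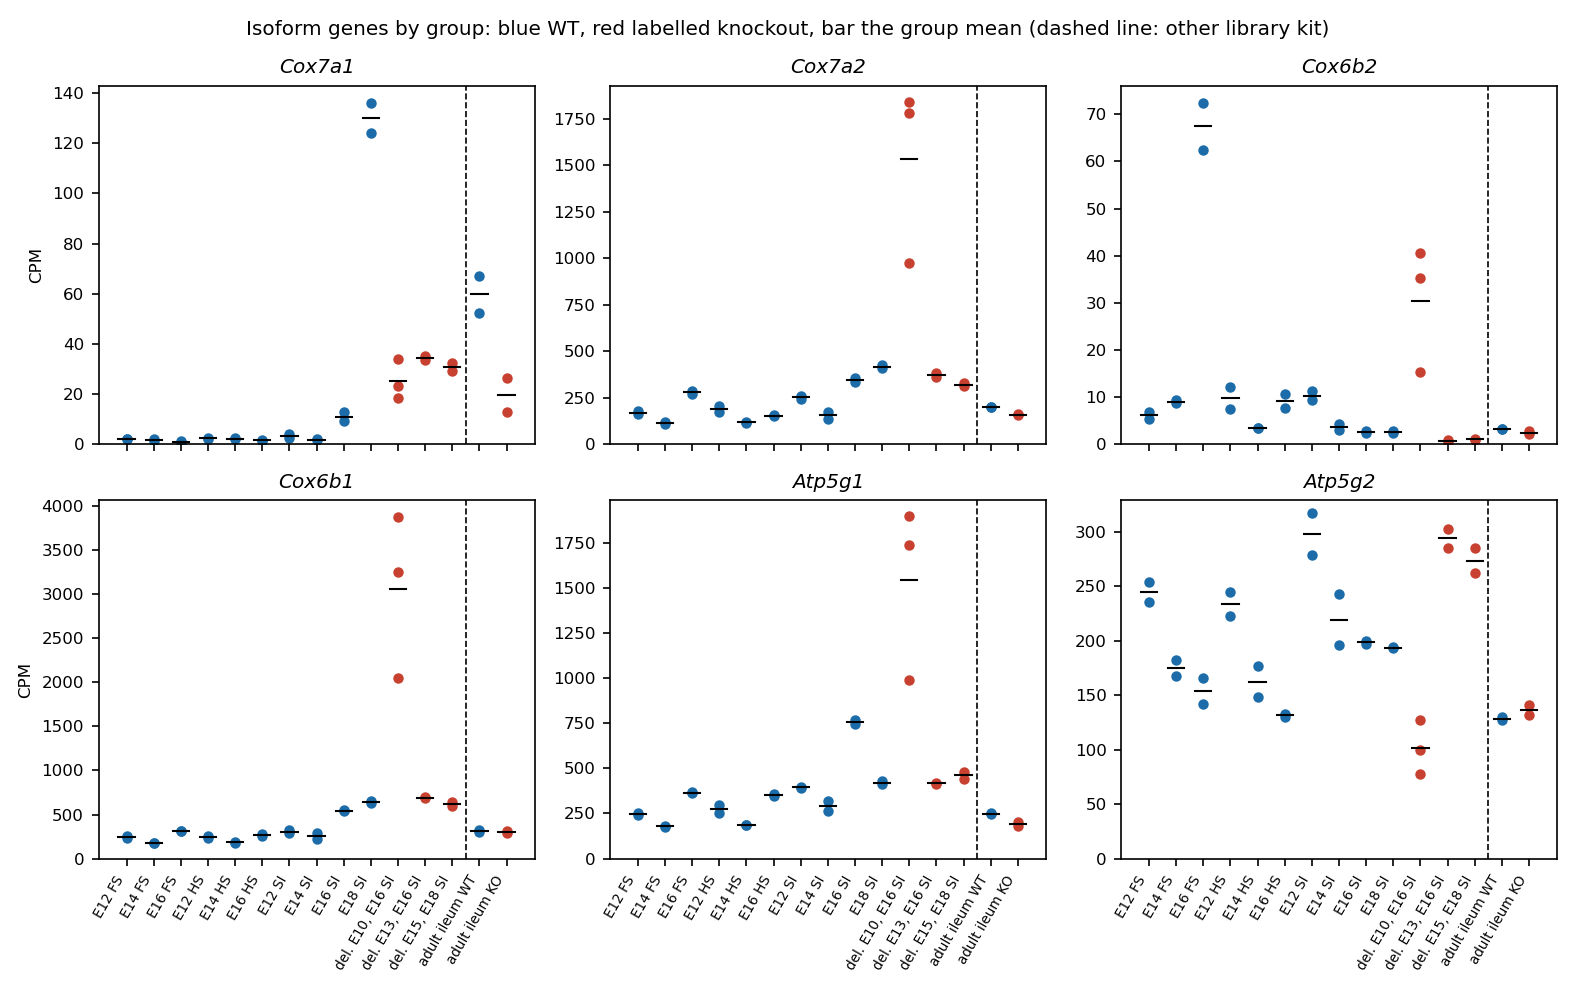
CPM per library of Cox7a1, Cox7a2, Cox6b2, Cox6b1, Atp5g1 and Atp5g2 by group, WT in blue and groups labelled knockout in red. Cox7a1 is highest in WT E18 small intestine (136 and 124 CPM), and Cox6b2 in WT E16 forestomach (62.5 and 72.4 CPM).

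In the libraries labelled deleted at E10, most members were far above WT E16 small intestine. Of the 81, 68 were higher and 7 lower, with a median log2 fold change of 2.09; of all genes 29.5% were higher and 33.6% lower (median -0.10). Accessory subunits were higher in 49 of 52 cases (median 2.29) and core subunits in 13 of 20, with 5 core subunits lower (median 1.13). Complex I had 31 higher and 2 lower of 34, complex III 7 and 0 of 8, complex IV 15 and 0 of 18, complex V 13 and 3 of 17 and complex II 2 and 2 of 4. Against E16 forestomach 70 were higher and 6 lower (median 2.58; 30.8% and 34.1% of all genes), and against E16 hindstomach 71 and 5 (median 3.06; 26.8% and 41%). The 3 comparisons share the libraries labelled deleted at E10.

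Ndufa3, an accessory subunit of complex I, stood at 620, 1220 and 960 CPM, against 114 and 98.5 CPM in WT small intestine (3.13, SE 0.20, edgeR adjusted p 1.19e-10). Atp5k stood at 551, 1350 and 1440 CPM, against 132 and 132 CPM (3.07, SE 0.28). Cox5a was at 2150, 4000 and 3650 CPM, against 523 and 483 CPM (2.70). In each of these genes all 3 libraries lay above WT, the first being the lowest of the 3. Cox4i1 and Cox6a1 were higher by 2.17 and 2.26, the Rieske protein Uqcrfs1 by 1.28, and Cox6b2, at 15.4, 40.6 and 35.3 CPM, by 3.51.

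The members of one complex did not move together. In complex II, Sdhb at 1210, 1430 and 1220 CPM and Sdhd at 1600, 1580 and 1140 CPM were higher than in WT (1.25 and 0.94). Sdha at 233, 176 and 214 CPM and Sdhc at 55.6, 92 and 117 CPM were lower, against 689 and 654 CPM and 305 and 283 CPM in WT (-1.69 and -1.74). Sdhc, like Sdhd, anchors the complex in the membrane. In complex I, Ndufs1 was at 68.7, 72.8 and 82.8 CPM against 262 and 292 CPM, a log2 fold change of -1.89 with SE 0.12 (edgeR, adjusted p 1.24e-10).

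In complex V, Atp5g3 (2.23) and Atp5g1 (1.02) were higher and Atp5g2 lower (77.9, 127 and 99.7 CPM against 200 and 197 CPM, -0.97). Atp5l, subunit g, was the lowest relative to WT, at 12.3, 25 and 27.3 CPM against 341 and 329 CPM (-3.98). The gene name table holds pseudogenes named after Atp5l, Atp5k, Atp5c1 and Uqcrh, none of which has a row in the count table; whether their reads were shared with these genes was not tested, so these values are uncertain. The catalytic subunit Atp5b was at 4520, 2900 and 2600 CPM against 3750 and 3640 CPM, and its groups overlapped (-0.14, edgeR adjusted p 0.415). Uqcrc1 (0.34) and Ndufv1 (0.31) were also not called.

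Genes with NRF1 letters were higher in 12 and lower in 3 of 16 tested (median 2.18), and those with a window but without them in 44 and 1 of 49 (2.14). With and without GABPA letters these were 15 and 1 of 16 (2.16) and 41 and 3 of 49 (2.14), with and without YY1 letters 7 and 0 of 7 (2.55) and 49 and 4 of 58 (2.12), and with and without estrogen-related receptor letters 2 and 0 of 2 (1.58) and 54 and 4 of 63 (2.14). These differences were not tested either. Cytosolic and mitochondrial ribosomal proteins were higher in 72 of 75 and 71 of 74. Assembly factors were higher in 27 and lower in 6 of 38. Citric acid cycle genes were split, 7 higher and 6 lower of 14, fatty acid oxidation genes were 5 higher and 12 lower of 20, and Ppargc1a and Esrra were lower (-2.63 and -3.05).

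Other values set these libraries apart. Cym, a stomach protease, took 8.26% to 11.7% of their counts, against 0.0119% and 0.0126% in WT small intestine. Malat1 was at 12600 to 21800 CPM, against 678 and 729 CPM. Mesenchyme and muscle markers took 0.0143% to 0.0204%, against 0.171% and 0.188%, with 11 of 14 lower. Blood markers took 0.000378% to 0.000796%, against 0.0219% and 0.0222%, with 3 of 5 tested lower, and immune markers 0.00845% to 0.0273%, against 0.039% and 0.0381%, with 4 of 10 lower. Of the nerve and glia markers 4 of 7 and of the endothelial ones 3 of 6 were lower, and of 7 epithelial markers 4 were higher and 1 lower. Lars2 split the 3 libraries, at 671, 3160 and 15000 CPM, against 635 and 524 CPM. The scaling factor of these libraries was 0.542 to 0.651, against 1.086 and 1.098. In plain shares of all counts, the 83 genes took 4.74%, 6.31% and 6.77%, against 3.33% and 3.30%, a ratio of 1.79 (SD 0.32). On adjusted totals they took 7.28%, 11.6% and 10.7%, against 3.07% and 3.01%, so the size of the difference depends on the scaling. The part of these values in the result was not tested. Without any 1 library 73 to 76 members were called.

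**Figure D5:**
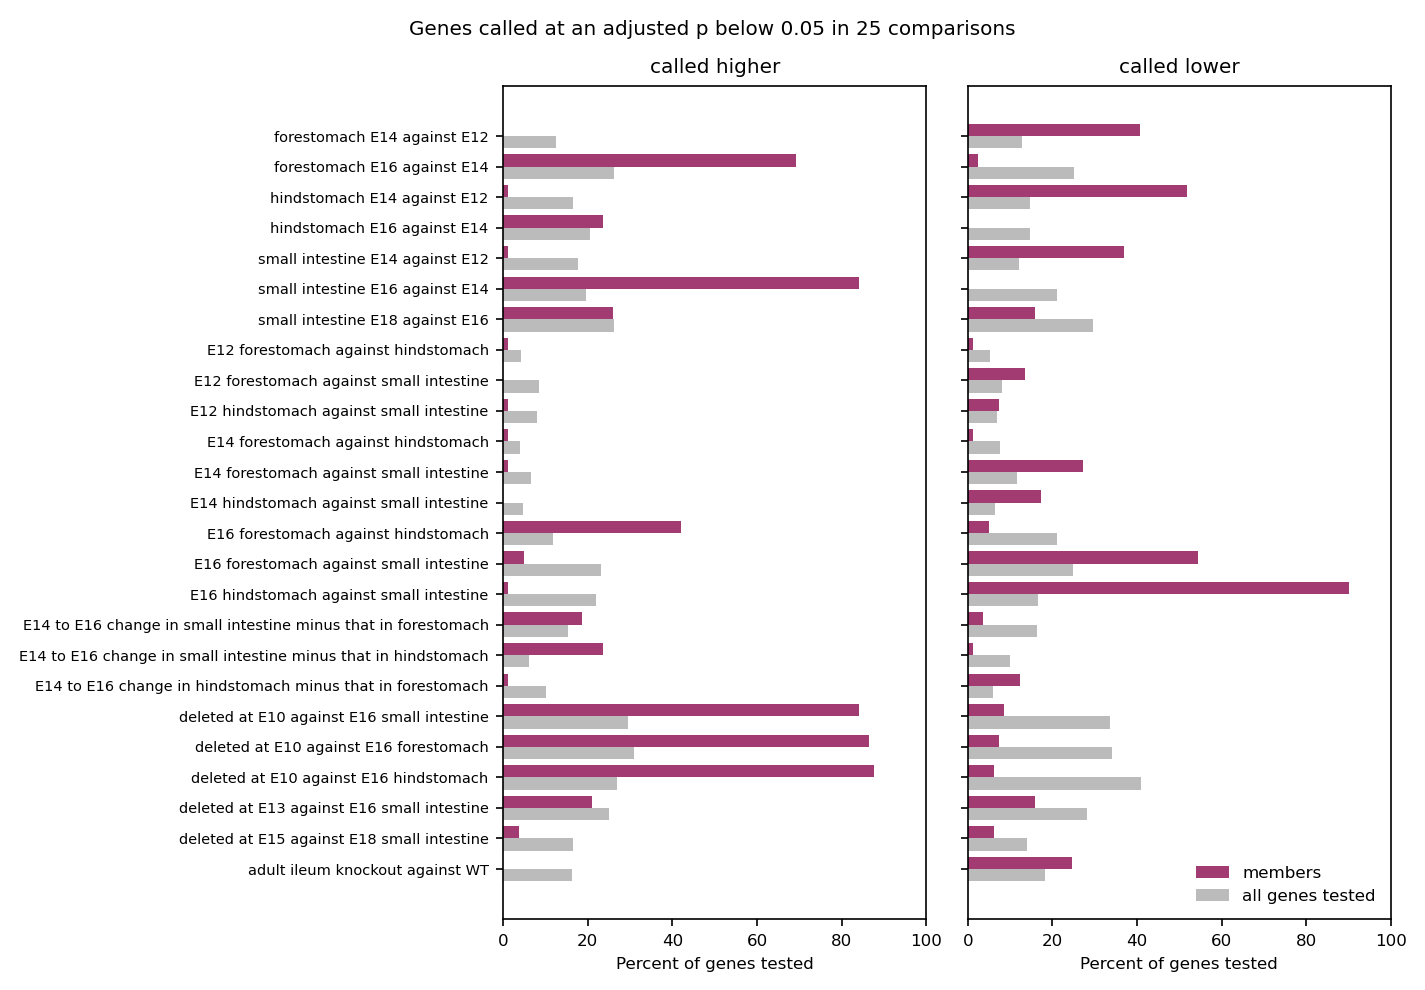
Percent of members (coloured) and of all genes tested called higher or lower by edgeR in each of the 25 comparisons. Members exceed all genes most in the E14 to E16 small intestine step, E16 hindstomach against small intestine and the libraries labelled deleted at E10.

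The libraries labelled deleted at E13, whose Cdx2 was at the WT level, had 17 members higher and 13 lower than WT E16 small intestine (median 0.00; 25% and 28.2% of all genes). They share these WT libraries with the comparison above. Cox7a2l was at 338 and 340 CPM against 94.8 and 97.4 CPM (1.82, SE 0.15, edgeR adjusted p 5.07e-09). Cox7a1 was at 33.4 and 35 CPM against 12.8 and 9.23 CPM (1.63), and Atp5sl was higher by 1.06. Cox7c, at 104 and 101 CPM against 300 and 285 CPM, was lower (-1.51), as were Cox6b2 (-1.90) and Ndufb2 (-1). In none of these genes did the groups overlap.

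All 14 mesenchyme and muscle markers and all 5 tested blood markers were also lower, with mesenchyme and muscle at 0.00555% and 0.0059% of counts. Of the 11 blood markers 7 were at 0, namely Hba-x and those at 0 in all groups. Immune markers took more counts in sum, 0.131% and 0.136% against 0.039% and 0.0381%, although 5 of 10 were lower and 1 higher (Cd74, 3.98). Their part in the result was not tested. As a share of all counts the members took 2.30% and 2.29%, a ratio to WT of 0.691, while on adjusted totals the ratio was 1.05, so its direction depends on the scaling. Without the second library labelled deleted at E13 19 members were called, and with only the compared groups fitted 61.

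In the libraries labelled deleted at E15, whose Cdx2 was above WT, 3 members were higher and 5 lower than in WT E18 small intestine (median -0.08; 16.5% and 13.9% of all genes). The total of 8 was 14 with RLE scaling (1 higher and 13 lower), 18 with DESeq2 (1 and 17) and 50 with only the compared groups fitted (7 and 43). Cox7a1 was at 32.2 and 29.3 CPM against 136 and 124 CPM (-2.08, SE 0.31, edgeR adjusted p 3.87e-05). Cox6b2 was lower (-1.31) and so was Sdhb, at 508 and 474 CPM against 654 and 642 CPM (-0.40). Cox6a2, an isoform of heart and muscle, had 0 counts in both against 8 and 17 counts in WT and was called lower, and Atp5d made the fifth. The higher ones were Ndufc2 (0.80), Atp5g2 (0.50) and Cox7a2l (0.39), of which the last 2 were not called with RLE scaling or DESeq2 (0.38 and 0.26).

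Beside them, Ppargc1a and Esrra were lower (-2.13 and -0.85) and 71 of 75 cytosolic ribosomal proteins higher. Immune markers took 0.0122% and 0.0122% of counts against 0.0566% and 0.0592% in WT, with 5 of 10 lower, and epithelial markers 1.12% and 1.06% against 0.63% and 0.616%, with 4 of 7 higher; their part in the result was not tested. The ratio of member shares was 1.07, but 0.925 on adjusted totals. Without the first or second WT library 2 and 3 members were called, and without the first or second library labelled deleted at E15 4 and 2.

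In adult ileum, the libraries labelled knockout had 0 members higher than WT and 19 lower, of 77 tested (median -0.31; 16.2% of all genes were higher and 18.3% lower, median 0.01). The 19 came from all complexes: 6 of 34 in complex I, 1 of 4 in complex II, 2 of 8 in complex III, 5 of 14 in complex IV and 5 of 17 in complex V. Cox7a1 was at 26.5 and 13 CPM against 52.3 and 67.2 CPM (-1.59, SE 0.37, edgeR adjusted p 0.0314). Cox4i1 was at 359 and 422 CPM against 645 and 676 CPM (-0.76, edgeR adjusted p 0.0197). Atp5d, the delta subunit of the complex V stalk, was lower by 0.77 (log2 fold change -0.77) and Atp5sl was at 16.2 and 19 CPM against 40.3 and 34.7 CPM (-1.09). The knockout libraries lay below WT in each.

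Of the genes around them, Cyc1 was lower (-0.73), as were the regulators Ppargc1a (-4.95) and Esrra (-1.16). Of the cytosolic ribosomal proteins 63 of 72 were higher, and all 5 tested immune markers were lower, at 0.0336% and 0.0304% of counts against 0.0667% and 0.225% in WT. Of the mesenchyme and muscle markers Vim (-4.06) and Pdgfrb (-1.37) were lower, of 3 tested. Nerve and glia markers took 0.0235% and 0.0313% against 0.0011% and 0.000558%, with Ret, the 1 tested, higher (5.16). Epithelial markers took 1.99% and 1.78% against 0.9% and 1.19%, with Krt19 (2.36) and Krt18 (1.40) higher and Cldn7 (-0.88) lower, of 7. The part of these markers in the result was not tested. The members took 1.43% and 1.41% of counts against 1.79% and 1.88%. With a replicate block fewer members were called, as given below. With 3 libraries the count was 1 to 3: 1 without either WT library or the first knockout library and 3 without the second.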

How the data were processed

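The authors deposited 1 table of raw read counts per gene, which holds whole numbers and no normalization. Per the submitters' processing notes, STAR 2.5.3a, HTSeq, Bowtie2 and MACS2 were used with build mm9; which step each served is not given in the sources used here, and strand use in counting is not stated. Reads were 75 bp single-end, per the labels' protocols. In the adult columns blank cells had shifted values against their genes; the blanks were closed up, which brought the rank correlation of adult with embryonic libraries across genes from 0.283 to 0.297 up to 0.931 to 0.962 between the blank cells and from 0.483 to 0.495 up to 0.957 to 0.973 below the second. The Uqcr genes, 8 in all, lie below a blank. A further 2 columns matched no sample and were not used.

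Counts were tested with edgeR 4.0.16 (R 4.3.3; filterByExpr with minimum count 10, TMM scaling, glmQLFit, glmQLFTest, Benjamini-Hochberg over all genes tested, adjusted p below 0.05, no fold minimum). One fit took all 13 embryonic groups (27 libraries) and gave 24 contrasts, and the 4 adult libraries had a fit of their own for 1. CPM uses the TMM-adjusted total. SD is over the libraries of a group and SE is of the log2 fold change. The smallest library total was 5970227 counts, and counts of few reads are given as such, since they are least precise. No libraries held the same values, and replicate pairs differed beyond counting noise to unlike degrees. The chi-square per degree of freedom over genes was 1.5 for WT E18 small intestine, the lowest. It was 2.4 and 4.8 for libraries labelled deleted at E13 and E15, and 123 for the most unlike pair labelled deleted at E10. The WT E18 pair thus differed little more than by counting. The test was tried on simulated counts with known changes. Alternatives were DESeq2 1.42.0, its size factors (RLE) in edgeR, no count filter, the compared groups alone, a replicate block and leaving out each library in turn. Shares of counts were repeated on TMM-adjusted totals and without the 20 most counted genes. Replicate numbers were compared with the deviations from group means, and did not pair the samples.

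Core and marker subunits, paired isoforms and, per comparison, up to 3 called members a direction with the largest log2 fold change and an average log2 CPM of at least 2 were named; members outside this rule were chosen after their values were seen. Members, gene lists and marker lists were chosen with earlier results of these data known, and the cytosolic and mitochondrial ribosomal protein lists were added after the counts were seen. No protein sequences or transcript lengths were used, so levels are not compared between genes.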

Additional observations from a re-analysis of the deposited data

Results flagged for a closer look

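The change from E14 to E16 differed between organs by the test of that difference in 18 members for small intestine and forestomach, in 20 for small intestine and hindstomach and in 11 for hindstomach and forestomach. Of all genes, 15.3% and 16.4% had the larger and the smaller change in small intestine against forestomach, 6.06% and 10.1% against hindstomach, and 10.2% and 5.86% in hindstomach against forestomach. With 1 library left out the members numbered 14 to 18, 10 to 19 and 1 to 5. The values are differences of log2 fold changes. For small intestine minus forestomach they were 3.28 for Cox7a1, 1.60 for Ndufs1, 1.37 for Sdha, -1.10 for Ndufa1 and -3.40 for Cox6b2. For small intestine minus hindstomach they were 3.02 for Cox7a1, 1.15 for Sdhd, 1.09 for Sdha and -1.91 for Cox6b2. For hindstomach minus forestomach they were 0.60 for Ndufs1 (0.44 and not called with RLE scaling or DESeq2), -0.99 for Ndufa3, -1.13 for Ndufb11 and -1.13 for Ndufa1.

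Some members were called in opposite directions in comparisons of a deletion group with its own WT, with no overlap of the libraries in either; the difference between the comparisons was not tested. Libraries labelled deleted at E10 and at E15 had 5 such members (Atp5d, Atp5g2, Cox6b2, Cox7a1 and Sdhb), and those labelled deleted at E10 and adult knockout had 18, among them Cox4i1, Cox7a1 and Sdhb. Libraries labelled deleted at E13 and at E15 had 2 (Cox7a1 and Ndufc2), those labelled deleted at E13 and adult knockout had 6 (Atp5sl, Cox5b, Cox7a1, Cox7a2l, Ndufa1 and Uqcrc1), and those labelled deleted at E15 and adult knockout had 1 (Cox7a2l). Counted in the same way, all genes gave 8.36% for the groups labelled deleted at E10 and E15 (6.17% of members), 8.66% for E10 and adult (23.4%), 12.9% for E13 and E15 (2.47%), 12.2% for E13 and adult (7.79%) and 0.854% for E15 and adult (1.30%). The adult calls numbered 19 and were 1 to 3 with any 1 library left out, and those for deletion at E15 numbered 8 and were 2 to 4, so the counts that use them rest on single libraries. The calls of Cox7a2l and Atp5g2 for deletion at E15 were lost with RLE scaling and with DESeq2, so the 1 member named for E15 and adult rests on the scaling. Cox7a1 was lower in the libraries labelled deleted at E15 and in the adult ones and higher in those labelled deleted at E10 and E13. Its own levels were alike in libraries labelled deleted at E13 (33.4 and 35 CPM) and at E15 (32.2 and 29.3 CPM). The WT libraries they were compared with differed, at 12.8 and 9.23 CPM at E16 and 136 and 124 CPM at E18.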

How the results depend on the processing

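Where only the compared groups were fitted, members called were 54 for forestomach E12 to E14 (33 in the fit of all embryonic groups), 47 for hindstomach E14 to E16 (19), 0 for small intestine E12 to E14 (31) and 62 for small intestine E16 to E18 (34). Compared with small intestine they were 2 (11) and 0 (7) for E12 forestomach and hindstomach and 38 (23) and 45 (14) for the same organs at E14, and 9 (2) for E14 forestomach against hindstomach. For the differences between organs in the E14 to E16 change they were 28 (18, small intestine and forestomach), 65 (20, small intestine and hindstomach) and 49 (11, hindstomach and forestomach), and for the libraries labelled deleted at E13 and E15 61 (30) and 50 (8). Fewer samples enter these fits, and the spread is estimated from the compared groups alone. Why the counts differ was not tested.

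With DESeq2 42 were called for hindstomach E14 to E16, 47 for small intestine E12 to E14, 17 for E12 forestomach against small intestine, 31 and 32 for the change in small intestine and in forestomach each against hindstomach, and 18 for libraries labelled deleted at E15. With RLE scaling the first was 36, the difference between hindstomach and forestomach 23 and the libraries labelled deleted at E15 14. In 8 comparisons RLE shifted the all-gene median by over 0.1, at most by 0.26 (forestomach E14 to E16), and the members' median with it, to 1.00 there and to 1.05 for small intestine E14 to E16. The cause was not tested.

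Replicate numbers did not pair the samples (correlations of deviations -0.152 to 0.097 over 22 pairs of groups). With a replicate block 9 members were called in adult ileum instead of 19; every other count was within 1.5 times, and pairing rests on a shared number alone.

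Leaving out 1 library gave 1 to 3 members in adult ileum, 0 to 1, 1 to 12 and 1 to 6 at E12 and 0 to 1, 3 to 25 and 0 to 16 at E14 (forestomach against hindstomach, forestomach against small intestine, hindstomach against small intestine), and 20 to 29, 37 to 41 and 63 to 70 at E16 in that order. The E12 to E14 steps gave 7 to 20, 9 to 19 and 3 to 30 and the E14 to E16 steps 47 to 52, 5 to 11 and 47 to 67 in forestomach, hindstomach and small intestine, and the E16 to E18 step 20 to 21. Differences between organs gave 14 to 18, 10 to 19 and 1 to 5, the libraries labelled deleted at E10 73 to 76, 73 to 77 and 75 to 76 against small intestine, forestomach and hindstomach, and those labelled deleted at E13 and E15 19 to 20 and 2 to 4.

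On TMM-adjusted totals the ratio of member shares was 1.93 for small intestine E16 over E14, 2.06 for E16 small intestine over hindstomach, and 3.25, 1.05 and 0.925 for libraries labelled deleted at E10, E13 and E15 over WT, the last 2 on the other side of 1. Without the 20 most counted genes it was 1.79 for E16 small intestine over hindstomach, 1.52 over forestomach, 2.12 and 0.766 for libraries labelled deleted at E10 and E13 and 0.83 for adult ileum.

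Of the 145 named gene values, 132 with RLE and 135 with DESeq2 kept direction and side of the threshold, and 15 lost the call where only the compared groups were fitted. Both RLE and DESeq2 lost Atp5s and Sdha (E16 forestomach against hindstomach), Atp5s (forestomach E14 to E16), Ndufs1 (hindstomach minus forestomach), Atp5g2 and Cox7a2l (labelled deleted at E15) and Atp5a1 (labelled deleted at E10), and RLE also Ndufs1 (forestomach E14 to E16), Cox8a (E12) and Uqcrq (E14, both hindstomach against small intestine). The compared groups alone lost Sdha, Ndufa2, Ndufa1 and Cox6b2 (small intestine E12 to E14), Ndufa1, Uqcr11, Atp5sl, Cox8a, Ndufv3 and Ndufb6 (E12 stomach against small intestine), Sdhc (labelled deleted at E10 against hindstomach) and, as above, both Atp5s values, Ndufs1 and Atp5a1. Over all single libraries left out, 552 values were kept, 105 lost the call and 3 turned; 35 of the 145 lost it at least once, among them Cox7a1 and Atp5d in adult ileum. Atp5b in libraries labelled deleted at E10 turned to 0.00 with the replicate block and ranged over -0.42 to 0.02 when 1 library was left out (0.02 and 0.01 without library 2 and library 3 labelled deleted at E10), and Atp5g2 in small intestine E14 to E16 turned to 0.02 with RLE and 0.01 with DESeq2 and ranged over -0.30 to 0.01 (0.01 without the first E14 library); neither was called in the main result. Members under 10 counts and the shallow E16 forestomach are the least precise.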
